A study of Mus musculus with 9 samples.

Results

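MHC class I presentation genes encode the proteins that display peptides from inside a cell on its surface for CD8+ T cells. The 9 genes described here were chosen by name and were H2-K1, H2-D1, B2m, Tap1, Tap2, Tapbp, Tapbpl, Nlrc5 and Erap1, out of 27179 genes in the count table. All 9 had enough reads to be tested, among 13129 tested genes. The mRNAs of B2m, H2-K1, Tap2, H2-D1, Erap1 and, by a small margin, Tapbp were recovered less by the antibody against phosphorylated UPF1 (p-UPF1) than by control IgG, whereas those of Nlrc5, the transcriptional activator of the pathway, Tapbpl and Tap1 were recovered more. These directions are relative to the bulk of mRNAs in a library, and scaling to mitochondrially encoded mRNA instead made all 9 higher over IgG, along with 99.4% of all genes tested. None of the 9 met the study's combined criterion for p-UPF1-bound RNA under the main scaling, which 6.25% of all genes met, a share too small to set 0 of 9 apart.

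A class I molecule is a heavy chain (H2-K1 and H2-D1 in these data) held by the light chain beta-2-microglobulin, encoded by B2m. Peptides made in the cytosol by the proteasome enter the endoplasmic reticulum through the transporter formed by TAP1 and TAP2, are trimmed there by the aminopeptidase ERAP1, and are loaded with the help of tapasin (Tapbp) and its relative TAPBPR (Tapbpl), which edit the peptide cargo. NLRC5 is a nuclear protein of the NOD-like receptor family that activates class I genes. UPF1 is an RNA helicase of nonsense-mediated mRNA decay (NMD). In that pathway a stop codon well upstream of the last exon junction, or a long 3′ UTR, can mark an mRNA for decay, and phosphorylated UPF1 recruits the decay factors.

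The cells were B cells of wild-type mouse spleen, purified as CD43- cells and activated for 72 h. The stimuli given in the labels were CD40L at 5 ug/mL, anti-IgM antibody at 10 ug/mL and IL-4 at 20 ng/mL, and the study's methods name an anti-CD40 antibody in place of the ligand. All 3 groups shared this genotype and treatment and had 3 libraries each, which were RNA precipitated with anti-p-UPF1, RNA precipitated with normal rabbit IgG on the same kind of beads, and RNA of the lysate (input). Strain and age of these mice are not given in the labels, and the study's methods give a C57BL/6 background for its mutant lines and adult mice throughout. The methods call the points of its graphs biological replicates, but neither they nor the labels say whether the 3 libraries of a group came from separate mice or cultures, so p-values measure only the spread between these libraries, which may be technical.

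Libraries held 17372510 to 24945286 counts, and IgG libraries were the shallowest. Within a group, Pearson's r of log2 CPM (read counts scaled to a common library size) was at least 0.982, and IgG library A stood farthest from its partners. Leaving it out changed no call for the 9 genes. The 6 B cell markers summed to 3200 to 3223 CPM in input, 2494 to 2584 CPM with IgG and 2398 to 2471 CPM with anti-p-UPF1, and the 4 plasma cell markers to 275 to 281 CPM in input, mostly Xbp1. Over IgG the B cell markers ran from Cd22 at 1.04 to Cd79a at -2.10 and the plasma cell markers from Sdc1 at 1.996 to Prdm1 at -1.23 on the log2 scale. Elane, Ncr1, Hbb-bs and Hba-a1 had 0 counts in all libraries, and no granulocyte, NK cell or erythroid marker had enough reads to be tested. Of the T cell markers only Trac was tested, at 0.608 CPM in input, and of the platelet markers only Itga2b, at 1.16 CPM. Of 5 myeloid markers Adgre1 was measured, at 131 CPM in input, while Lyz2, Csf1r, Itgam and Cd14 had at most 21 counts over the 3 libraries of any group. Of the dendritic cell markers Zbtb46 reached 36.7 CPM in input and met both criteria for p-UPF1-bound RNA, and Flt3 reached 1.72. In bulk RNA, fewer cells of a type and less RNA per cell cannot be told apart, and the part of other cell types in the results was not tested.

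Stop codons and shared sequence were examined first, because they set what gene-level counts can show. NMD-class annotation was found for one of the 9 genes. Nlrc5-205, an 11-exon GENCODE transcript of 856 bases, has its stop codon 578 bases before its last exon junction, while full-length Nlrc5-201 of 49 exons has it in the last exon. Among all tested genes with a GENCODE protein-coding transcript, 29.4% had an NMD-class transcript. B2m is the other unusual case, since its stop codon lies 15 bases before the last junction. Among 11784 tested genes with such a junction, 3.85% had the stop codon before it. Their median log2 fold change over IgG was -0.02, beside 0.01 for the rest. A stop codon more than 50 bases before the last junction, which B2m does not have, was found in 0.297%. The last 27 coding bases and the stop codon, in capitals, are shown for these 3 transcripts on GRCm38, at chr8:94526046-94526075 for Nlrc5-201 and chr8:94484122-94484151 for Nlrc5-205, both plus strand, and at chr2:122151136-122151660, plus strand and across an intron, for B2m-201.
Nlrc5-201: ttctccatcactgaccagcagactcttTGA
Nlrc5-205: ctgcaactcaggtaccacggcaaaggaTAA
B2m-201: aagaccgtctactgggatcgagacatgTGA
The counts are per gene and did not separate the Nlrc5 transcripts. In the other 7 genes the stop codon of the RefSeq transcript used lies in the last exon.

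H2-K1 and H2-D1 are paralogs, and 91.5% of their aligned coding bases were identical. Their longest shared coding run had 91 bases and is printed in capitals with 20 bases on either side, at chr17:33997323-33997453, minus strand, for H2-K1 and at chr17:35265891-35266021, plus strand, for H2-D1.
H2-K1: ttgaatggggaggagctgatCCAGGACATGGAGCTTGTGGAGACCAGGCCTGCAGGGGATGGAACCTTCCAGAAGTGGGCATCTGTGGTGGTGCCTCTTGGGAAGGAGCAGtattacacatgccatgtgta
H2-D1: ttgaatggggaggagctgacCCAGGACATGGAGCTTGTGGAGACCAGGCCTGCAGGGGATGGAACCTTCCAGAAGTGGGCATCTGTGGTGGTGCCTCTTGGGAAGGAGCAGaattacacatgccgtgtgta
Of all 50-base words in their transcripts, 9.63% for H2-K1 and 12.8% for H2-D1 also occurred, on either strand, in GENCODE transcripts of another gene. The largest shares for H2-K1 were with H2-Q10 (5.18%) and H2-D1 (4.08%), and those for H2-D1 with H2-Q1 (5.87%) and H2-K1 (5.44%). How the authors' counting treated reads that fit several genes is not given in the sources used here, so counts of class I heavy chain genes are uncertain to that extent. The same holds for Tapbp, with 23.2% of its words shared, mostly with Gm19412 on the opposite strand, for Tap2 with 11.6%, mostly with the noncoding gene Gm15821 on the opposite strand, and for Erap1 with 10.7%, all with Cast on the opposite strand. Tapbpl shared 3.69%, Tap1 3.33% and Nlrc5 0.339%, and B2m shared no such word with another gene.

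The heavy chain genes lie on chromosome 17 of GRCm38, H2-K1 at chr17:33996012-34000619 on the minus strand and H2-D1 at chr17:35263094-35267497 on the plus strand. H2-K1 had 1353, 1317 and 1304 CPM in input libraries A to C, 1194, 1097 and 1128 CPM in IgG and 424, 403 and 407 CPM in p-UPF1. The 3 groups did not overlap. The log2 fold change of p-UPF1 was -1.47 ± 0.04 over IgG (SE, adjusted P = 3.56e-15, edgeR) and -1.69 ± 0.04 over input (adjusted P = 5.56e-16, edgeR). H2-D1 had 617, 593 and 598 CPM in input, 517, 490.5 and 492 CPM in IgG and 297, 289 and 273 CPM in p-UPF1. It kept the same order of groups without overlap, with a difference of -0.80 ± 0.04 on the log2 scale from IgG (SE, adjusted P = 1.33e-11, edgeR) and -1.07 over input.

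B2m (chr2:122147687-122153082, plus strand) showed the lowest recovery of the 9. It had 1306, 1329 and 1269 CPM in input, 549.6, 590.0 and 565 CPM in IgG, and 87.5, 90.0 and 94.0 CPM in p-UPF1. No library of one group overlapped another group, and the level fell 6.28-fold from IgG to p-UPF1 and 14.4-fold from input to p-UPF1. On the log2 scale these were changes of -2.65 ± 0.04 (SE, adjusted P = 1.15e-17, edgeR) and -3.85 ± 0.05 (SE, adjusted P = 3.53e-19, edgeR). Of all genes tested, 2.43% had a lower value over IgG and 0.724% a lower value over input. Part of the difference from input was present with control antibody, since IgG over input was -1.20 (adjusted P = 5.33e-12, edgeR).

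**Figure D1:**
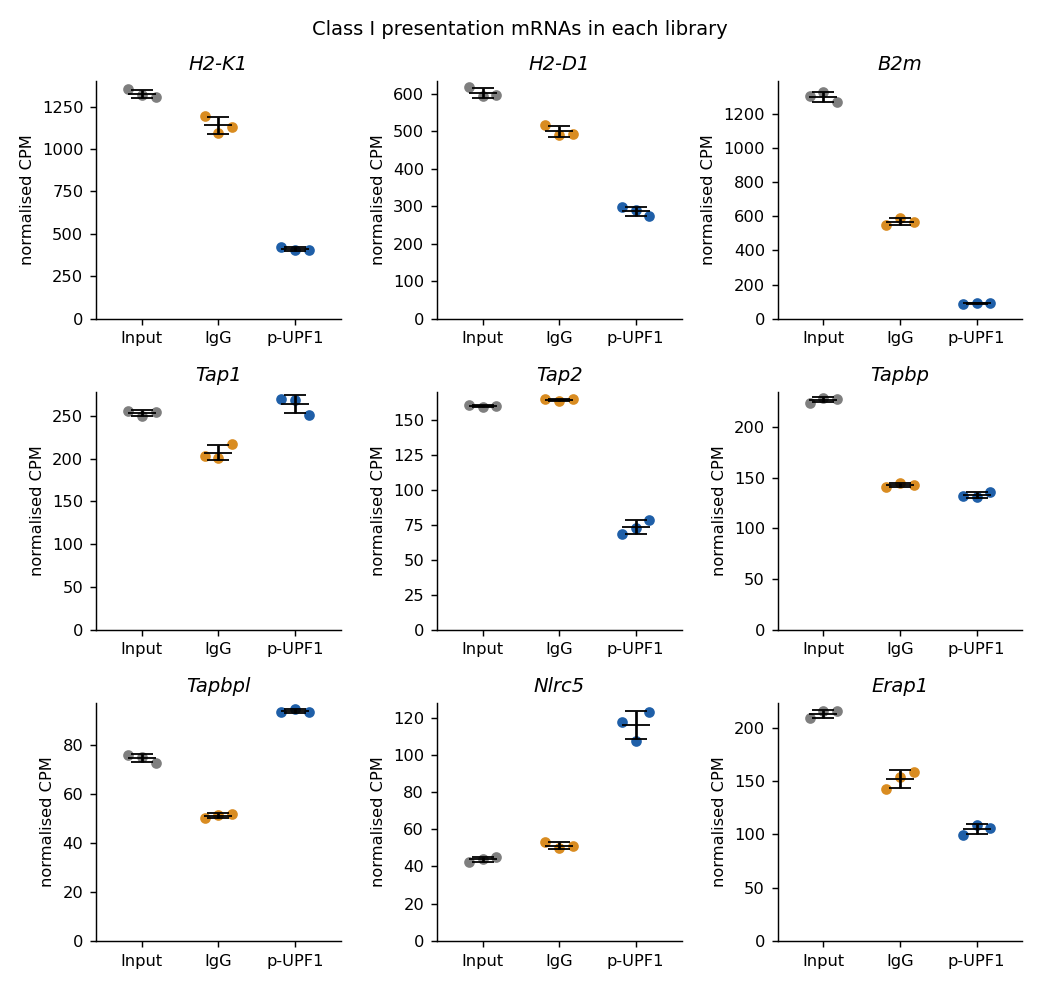
TMM-normalised counts (CPM, vertical axis from 0) of each gene in the 3 input, 3 IgG and 3 p-UPF1 libraries. Points are libraries A to C from left to right, and bars give the mean and SD. The p-UPF1 points of B2m, at 87.5 to 94.0 CPM, lie below its IgG and input points, and those of Nlrc5, at 108 to 123 CPM, lie above both other groups. Under scaling to mitochondrially encoded mRNA p-UPF1 exceeded IgG for all 9 genes.

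The transporter subunits differed from each other. Tap1 (chr17:34187556-34197225, plus strand) had 256, 249 and 255 CPM in input, 203, 201 and 217 CPM in IgG and 270.0, 269 and 251 CPM in p-UPF1. Its p-UPF1 libraries lay above all IgG libraries but overlapped input. Tap1 thus exceeded IgG by 0.35 ± 0.04 on the log2 scale (SE, adjusted P = 1.33e-06, edgeR) and input by 0.06 ± 0.04 (SE, adjusted P = 0.225, edgeR). The difference from IgG was 0.19 with library size alone and remained called. The call against input was not stable, since 6 of the alternative settings gave an adjusted P below the threshold with a higher value and upper-quartile scaling gave -0.01. Tap2 (chr17:34204479-34216321, plus strand) had 161, 159 and 159 CPM in input, 164, 163 and 165 CPM in IgG and 68.7, 72.8 and 78.2 CPM in p-UPF1. All p-UPF1 libraries were below the others, with a log2 fold change of -1.16 ± 0.05 over IgG (SE, adjusted P = 5.14e-13, edgeR) and -1.13 over input.

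Tapasin and its relative differed too. Tapbp (chr17:33919478-33929290, plus strand) had 224, 229 and 228 CPM in input, 140.4, 145 and 143 CPM in IgG and 132, 131 and 136 CPM in p-UPF1. Most of its difference from input lay between input and IgG, at -0.67 (adjusted P = 1.4e-09, edgeR). The log2 fold change over IgG was -0.10 ± 0.04 (SE, adjusted P = 0.0237, edgeR). This call was lost without p-UPF1 library A (-0.08), p-UPF1 library B (-0.08), IgG library B (-0.08) or input library B (-0.09), with DESeq2 size factors (-0.09) and without the filter on low counts (-0.06), while library size alone gave a larger difference of -0.26. Tapbpl (chr6:125223927-125231860, minus strand) had 75.8, 75.2 and 72.8 CPM in input, 50.1, 51.6 and 52.0 CPM in IgG and 93.6, 94.9 and 93.6 CPM in p-UPF1. Here the p-UPF1 libraries were the highest of the 3 groups, with a log2 fold change of 0.88 ± 0.04 over IgG (SE, adjusted P = 1.1e-11, edgeR) and 0.33 over input (adjusted P = 1.83e-06, edgeR).

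Nlrc5 (chr8:94434335-94527272, plus strand) had the highest recovery of the 9. It had 42.3, 43.9 and 45.1 CPM in input, 53.1, 49.9 and 50.7 CPM in IgG and 117, 108 and 123 CPM in p-UPF1. Its p-UPF1 libraries were all above those of both other groups, at 2.26-fold over IgG and 2.65-fold over input. The log2 fold changes were 1.18 ± 0.06 over IgG (SE, adjusted P = 3.99e-12, edgeR) and 1.41 ± 0.06 over input (SE, adjusted P = 3.54e-13, edgeR). It was the only one of the 9 to reach a log2 fold change of 1 over IgG with an adjusted P under 0.05, as 22.2% of all genes did, and it did not reach the 2 over input that the criterion asks.

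Erap1 (chr13:74639573-74693205, plus strand) had 209, 216 and 216 CPM in input, 143, 154 and 159 CPM in IgG and 99.8, 109 and 106 CPM in p-UPF1. Its groups did not overlap, and it fell from input through IgG to p-UPF1. From IgG it differed by -0.54 ± 0.05 on the log2 scale (SE, adjusted P = 2.25e-08, edgeR) and from input by -1.03. Of its exonic bases, 14.7% lie opposite exons of Cast, which encodes the calpain inhibitor calpastatin and had 68.9 ± 2.99 CPM in p-UPF1 and 109 ± 3.1 CPM in IgG (SD, n = 3).

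Against IgG, 3 of the 9 were higher in p-UPF1 and 6 lower by edgeR's quasi-likelihood test, where 40.4% of all genes tested were called higher and 42.2% lower. The 6 included Tapbp, whose call was lost in some alternative settings. Against input 2 were higher and 6 lower, where 40.8% of all genes were higher and 42.6% lower. In some alternative settings Tap1 was called higher than input as well. The median log2 fold change of the 9 was -0.54 over IgG and -1.03 over input, beside -0.03 over IgG and -0.03 over input for all genes tested. In the background contrast of IgG over input, 1 of the 9 was higher and 7 lower, where 18.2% of all genes were higher and 34.7% lower. That split of all genes depended on scaling, since 34.4% of called genes were higher with TMM scaling and 52.6% with library size alone. These contrasts share libraries, so they are not independent of each other.

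The study's combined criterion for p-UPF1-bound RNA sets a minimum of 1 over IgG and of 2 over input on the log2 scale, both with adjusted P below 0.05, and 6.25% of all genes tested met it. The count for the 9 genes was 0 by edgeR, DESeq2, limma-voom and glmTreat, and also 0 by the fold minimums alone whatever the p-value. Scaled to mitochondrially encoded mRNA the count was 8, beside 96.9% of all genes tested, with all 9 higher over IgG, beside 99.4%. Those mRNAs made up 0.0706% to 0.0778% of counts in p-UPF1 libraries, beside 2.05% to 2.24% with IgG and 2.47% to 2.53% without precipitation. This scaling moved the median log2 fold change of all genes to 4.66 over IgG, with 99.97% of called genes higher beside 48.9% with TMM, and to 5.00 over input. A scaling shifts all genes of a library alike, so a value relative to that median hardly moves by construction, and B2m over IgG stood at -2.62 relative to it with TMM and at -2.61 with the mitochondrial scaling.

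**Figure D2:**
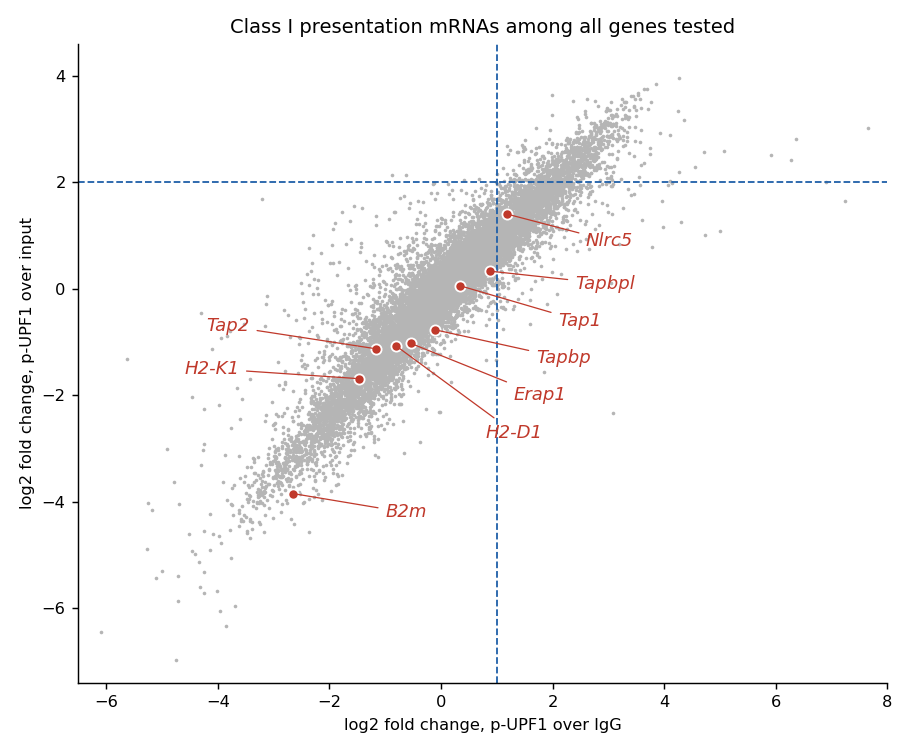
Log2 fold change of p-UPF1 over IgG (horizontal axis) and over input (vertical axis) with TMM scaling for 13129 genes (grey points) and the 9 class I genes (red points). Dashed lines mark the fold minimums of 1 and 2, and no red point lies in the upper right corner that they bound. Nlrc5 comes nearest at 1.18 and 1.41, and B2m is lowest at -2.65 and -3.85. Scaling to mitochondrially encoded mRNA moved all 9 genes above 0 on both axes.

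Ratios of 2 genes within a library do not depend on how libraries are scaled, and 3 pairs were compared between p-UPF1 and each of the other groups. The count of H2-K1 over that of H2-D1 was 2.19, 2.22 and 2.18 in input, 2.31, 2.24 and 2.29 in IgG, and 1.43, 1.40 and 1.49 in p-UPF1. The heavy chain pair thus stood closer together in p-UPF1, and the ratio was 1.59-fold smaller than in IgG. Tap1 over Tap2 was 1.59, 1.57 and 1.60 in input, 1.23, 1.23 and 1.32 in IgG, and 3.93, 3.69 and 3.21 in p-UPF1, a 2.86-fold difference from IgG. Tapbp over Tapbpl was 2.95, 3.04 and 3.13 in input, 2.80, 2.80 and 2.74 in IgG, and 1.42, 1.38 and 1.45 in p-UPF1, a 1.97-fold difference from IgG. The groups did not overlap in any of the 6 comparisons, and the exact two-sided permutation test gave p = 0.1 for each, before and after Benjamini-Hochberg adjustment over the 6. That is the smallest p that 3 against 3 libraries allow, so these differences could not pass the threshold. Other gene pairs were not examined, and 40.4% of all genes tested were called higher and 42.2% lower over IgG. The lack of overlap therefore cannot be read as particular to these pairs, which were chosen with earlier results known. Because H2-K1 and H2-D1 share sequence, reads assigned to the wrong paralog would pull their ratio, and the extent was not tested.

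**Figure D3:**
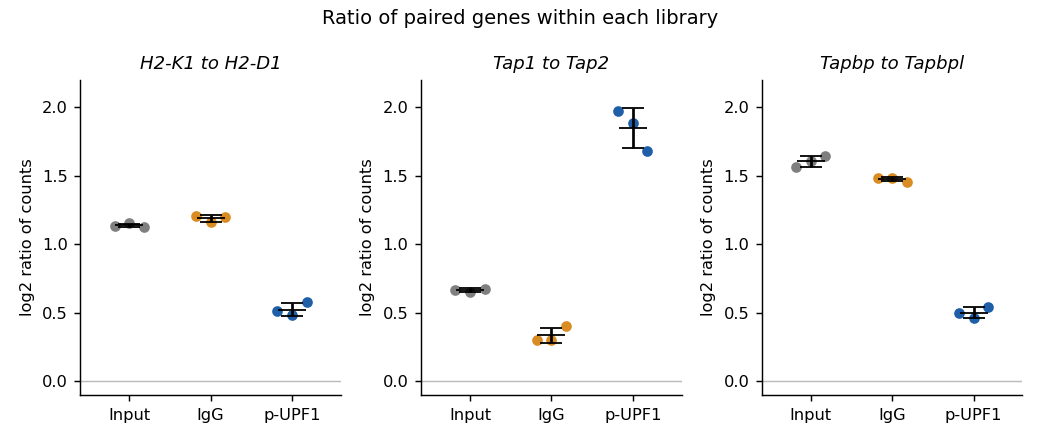
Log2 ratio of the raw counts of 2 genes in the same library (vertical axis, 0.5 added to each count) for 3 pairs, by group. Points are libraries, and bars give the mean and SD of 3. The p-UPF1 libraries are lower than both other groups for H2-K1 to H2-D1, higher for Tap1 to Tap2 and lower for Tapbp to Tapbpl.

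Levels of different genes were compared as CPM per kb of annotated exon. In input the order was B2m (1517 ± 34.96 CPM per kb), H2-K1 (540 ± 10.4), H2-D1 (347 ± 7.33), Tap1 (85.8 ± 1.13), Tapbp (82.5 ± 0.942), Tap2 (64.1 ± 0.359), Erap1 (37.4 ± 0.679), Tapbpl (29.9 ± 0.639) and Nlrc5 (5.53 ± 0.183, SD, n = 3). The libraries of neighbours in that order did not overlap. In p-UPF1 the order began with H2-K1 (168 ± 4.45 CPM per kb) and H2-D1 (165 ± 7.06), whose libraries overlapped, followed by B2m at 105 ± 3.80. That overlap held for exonic length only, since per kb of coding sequence H2-K1 (371 ± 9.83) and H2-D1 (263 ± 11.3, SD, n = 3) stood apart in p-UPF1. Per kb of coding sequence the libraries of H2-D1 overlapped those of B2m (251 ± 9.05) instead. Nlrc5 was still the lowest in p-UPF1, at 14.6 ± 0.969 CPM per kb of annotated exon. Its higher recovery was thus a difference between groups and not a high level. The ranks of Tap1, Tap2, Tapbp and Erap1 depended on the length used, since Tapbp came before Tap1 and Erap1 before Tap2 in input per kb of coding sequence. On that scale the libraries of Erap1 (76.4 ± 1.39) and Tap2 (75.7 ± 0.424) overlapped, so their order there was not clear.

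Transcript features were set beside recovery. In 6 of the 9 genes the annotated 3′ UTR was shorter than the median of 992 bases over 12099 tested genes with a RefSeq transcript. They were Tap2 with 228 bases, B2m with 447, Tap1 with 451, H2-K1 with 460, Tapbpl with 461 and H2-D1 with 627. Tapbp had 1139 bases, Nlrc5 1197 and Erap1 2476. Across all genes, which are not independent replicates, recovery over IgG rose with 3′ UTR length (Spearman's rho = 0.371, 12099 genes), and the median log2 fold change was -0.85 for genes up to the lower quartile of length (394 bases) and 0.39 for genes from the upper quartile (2001 bases). Recovery over IgG rose with the length of the whole mRNA as well (Spearman's rho = 0.314, the same 12099 genes). The trend was thus not particular to the 3′ UTR, and the part of each length was not tested. Over the 9 genes rho with 3′ UTR length was 0.533, a description of 9 points that share libraries. Of the 6 with a shorter 3′ UTR than the median, 4 were lower over IgG and 2 higher, and of the 3 with a longer one, 2 were lower and Nlrc5 higher. Tap1, with a 3′ UTR of nearly the same length as those of B2m and H2-K1, was higher over IgG, and Erap1, with the longest, was lower. Tapbpl was higher too, and its length depended on the annotation, with 461 bases in RefSeq and 733 after the stop codon of Tapbpl-201 in GENCODE. Nlrc5 had the longest coding sequence of the 9, at 5748 bases, longer than that of 97.0% of genes.

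**Figure D4:**
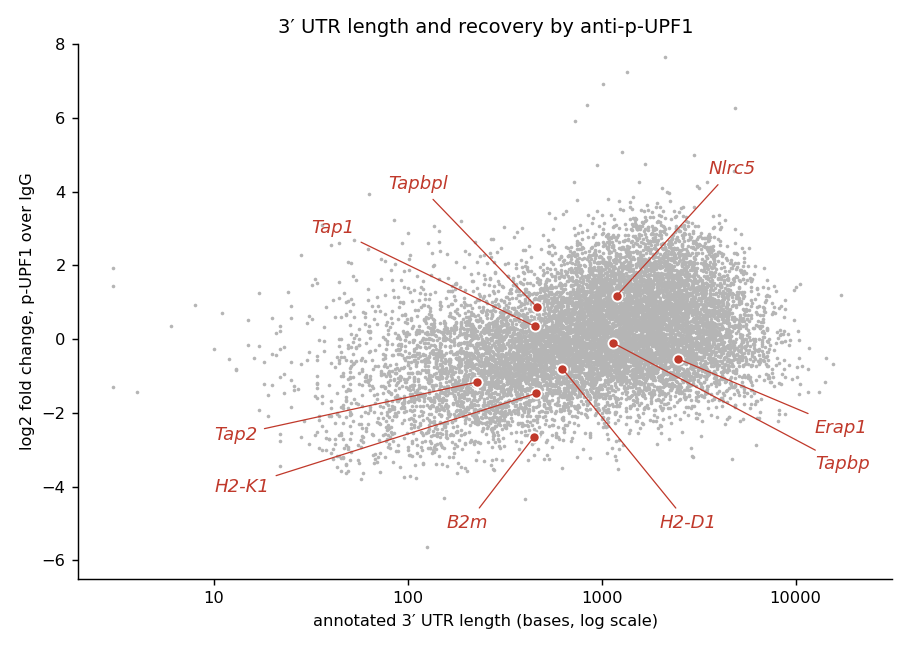
RefSeq 3′ UTR length in bases (horizontal axis, log scale) and log2 fold change of p-UPF1 over IgG with TMM scaling (vertical axis) for tested genes with a 3′ UTR (grey points) and the 9 class I genes (red points). B2m, H2-K1, Tap1 and Tapbpl sit at 447 to 461 bases and spread from -2.65 to 0.88. With the mitochondrial scaling all 9 genes lay above 0.

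The wider pathway was described by lists of other genes, whose counts over IgG stand beside 40.4% higher and 42.2% lower among all genes tested. The immunoproteasome and its activator, which make class I peptides after interferon, had 5 of 5 genes lower in p-UPF1 than in IgG under TMM scaling, from Psmb9 at -1.09 to Psme2 at -1.84. The 3 constitutive catalytic subunits that they replace were lower as well, from Psmb5 at -2.29 to Psmb7 at -2.63. Of 6 loading and folding partners in the endoplasmic reticulum, 4 were lower and 1 higher. The lowest was Pdia3, the disulfide isomerase of the loading complex, at -1.52 (434 ± 17.2 CPM in IgG and 151 ± 2.62 in p-UPF1, SD, n = 3), and the highest was Uggt1, a folding sensor of glycoproteins, at 0.92. With the mitochondrial scaling every gene of these lists was higher over IgG.

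Of 6 peptidases that act on class I peptides, 5 were lower and 1 higher under TMM scaling, beside 42.2% and 40.4% of all genes. The highest was Blmh, bleomycin hydrolase, at 0.51, and the lowest was Lnpep, an aminopeptidase of endosomes, at -2.54. For Lnpep the IgG level was high and variable at 454 ± 117 CPM (SD, n = 3), while p-UPF1 held 78.1 ± 9.2 CPM and input 161 ± 2.22 CPM. Of 6 tested genes of class I quality control and turnover, 4 were higher and 2 lower, beside the same shares. They ran from Marchf9, a membrane ubiquitin ligase, at 1.82 to Bcap31, a membrane protein of the endoplasmic reticulum, at -1.84.

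Some transcription factors of class I genes had p-UPF1-bound RNA. Of 15 tested, 9 were higher and 3 lower over IgG under TMM scaling, where 40.4% of all genes were higher and 42.2% lower. Both criteria were met by 4 of the 15, beside 6.25% of all genes. Stat2, a signal transducer of type I interferon, rose to 676 ± 8.97 CPM in p-UPF1 from 71.5 ± 4.18 CPM with IgG and 57.4 ± 1.23 CPM in the lysate (SD, n = 3), a log2 fold change of 3.24 over IgG. Nfya, a subunit of the CCAAT-binding factor NF-Y, was at 3.01, Irf1, an interferon regulatory factor, at 2.47, and Rfxank, a subunit of the RFX complex that binds MHC promoters, at 2.06. Creb1, which binds the same promoters, was lowest at -0.73. The median of the list was 0.69. With the mitochondrial scaling all 15 were higher.

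Other class I and class I-like chains were mixed. Of 12 tested, 6 were higher and 3 lower over IgG under TMM scaling, and 5 were lower with upper-quartile scaling, library size alone or an input library as reference. Among all genes 40.4% were higher and 42.2% lower. H2-T10 at 2.58, H2-Q6 at 1.71 and H2-K2 at 1.52 met both criteria, as 6.25% of all genes did, and H2-T23, the nonclassical chain that presents leader peptides, was lowest at -1.77. H2-Q6 shared 4.28% of the 50-base words of H2-D1, so reads of these paralogs are uncertain too. MHC class II genes served as comparison. Of 11, 8 were lower and 3 higher over IgG, beside 42.2% and 40.4% of all genes, with a median of -1.29, and H2-Aa, an alpha chain, was lowest at -2.15. Ciita, the class II transactivator and a relative of Nlrc5, was the highest at 2.98 and met both criteria, at 2374 ± 61.2 CPM in p-UPF1, 300.0 ± 22.3 CPM with IgG and 346 ± 10.6 CPM in the lysate (SD, n = 3). In each set the transactivator mRNA had the highest value of its list. The difference between the sets was not tested.

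**Figure D5:**
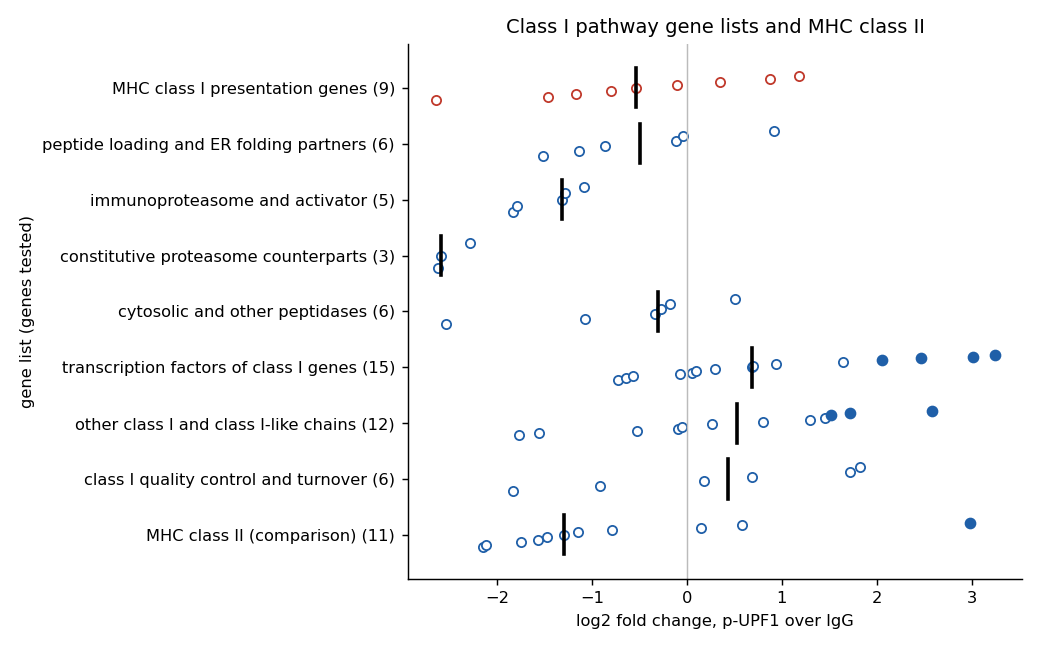
Log2 fold change of p-UPF1 over IgG with TMM scaling (horizontal axis) for the tested genes of each list (vertical axis, number tested in parentheses). Filled points met both criteria for p-UPF1-bound RNA, open points did not, and black bars mark medians. The 9 class I genes (red, all open) run from -2.65 to 1.18, and 4 transcription factors are filled. With the mitochondrial scaling the 9 class I genes were all above 0.

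The genes most like each of the 9 across the 9 libraries were sought by the Euclidean distance of log2 CPM, centred on each gene's own mean, among 8992 genes with a mean of at least 10 CPM. The nearest was Dnajc8 for H2-K1 (distance 0.110), Septin6 for H2-D1 (0.0766), Rpl36, a ribosomal protein gene, for B2m (0.267), Ppif for Tap1 (0.0736), Pus1 for Tap2 (0.0980), Ighm, the IgM heavy chain, for Tapbp (0.139), Ptbp1 for Tapbpl (0.0969), Dclre1a for Nlrc5 (0.171) and Hcfc1 for Erap1 (0.132). None of the 9 had another of the 9 as its nearest gene, which says little about their likeness when 8992 genes were compared. The closest pair among them was H2-D1 and Erap1 at 0.426, and 548 other genes lay nearer to H2-D1 than Erap1 did.

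The RefSeq genes that overlap the 9 on the opposite strand were mostly sparse, except Cast. Gm19412 covers 14.4% of the exonic bases of Tapbp and had 2.16 ± 0.411 CPM in p-UPF1, beside 133 ± 2.63 for Tapbp (SD, n = 3). 9330175E14Rik covers 1.25% of those of Nlrc5 and was at 0.400 ± 0.203 CPM. E130112N10Rik, which overlaps the span of Tapbpl but none of its exons, was at 2.03 ± 0.237 CPM, and Patl2, in the span of B2m, had too few reads to be tested.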

How the data were processed

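RNA of p-UPF1 precipitates, IgG precipitates and input was sequenced from directional libraries on a NextSeq 500, and the authors deposited raw read counts per gene, by NCBI Gene number. The submitters' processing notes name cutadapt, HISAT2, featureCounts and mm10, without versions. Strand and multimapping settings for these libraries are not given in the sources used here. Without strand, a read cannot be given to a gene rather than its antisense partner. Reads amplified from 1 molecule were counted separately, so counting error understates the true error. Columns carried letters, which recur in all 3 groups, and were assigned to groups only.

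Symbols, positions and transcripts came from RefSeq on GRCm38, the assembly that mm10 names, and transcript classes and printed sequences from GENCODE M21. Genes were filtered with edgeR's filterByExpr (minimum count 10, minimum total 15), which left 13129 genes, and scaled by TMM factors. The 3 groups were fitted without covariates in edgeR 4.0.16 (R 4.3.3) by quasi-likelihood (glmQLFTest, two-sided). P-values were adjusted by Benjamini-Hochberg over all genes tested, and fold changes carry a prior count of 0.125. Standard errors came from the test statistic. Ratios were compared by exact permutation. Alternatives included DESeq2 1.42.0, limma-voom (limma 3.58.1), glmTreat, other scalings and filters, and leaving out each library. CPM values are TMM-normalised.

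The genes, lists and comparisons were chosen with earlier results of these data known. Named genes were the 9 members, the highest and lowest gene over IgG and each bound gene of every list, overlapping genes, and the nearest gene to each member. Other cell type markers were named after their values were seen. H2-L matched no row, and T cell, plasma cell, platelet and other marker lists served to check the cell type.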

Additional observations from a re-analysis of the deposited data

How the results depend on the processing

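The count columns carry the same letters in all 3 groups, and no label says what a letter marks. Deviations from the group means correlated at 0.0674 to 0.202 between same-lettered libraries of different groups (9 pairs, across 8992 genes) and at -0.144 to 0.0308 between other letters (18 pairs), so each library correlated best with its own letter, a hint from the data and not from the design. A fit with the letter as a replicate block, chosen after seeing the data, changed no call of the 9 genes. It called 5328 genes higher over IgG in place of 5299 and 5547 lower in place of 5546, with 822 bound in place of 820. Of 27 log2 fold changes (9 genes in 3 contrasts), all kept their direction and their side of the threshold with limma-voom, a prior count of 2 and a filter of at least 1 CPM in 3 libraries. Scaling to mitochondrially encoded mRNA turned over IgG H2-K1 to 3.22, H2-D1 to 3.89, B2m to 2.04, Tap2 to 3.53, Tapbp to 4.59 and Erap1 to 4.16. Over input it turned H2-K1 to 3.35, H2-D1 to 3.96, B2m to 1.19, Tap2 to 3.92, Tapbp to 4.27 and Erap1 to 4.01, and raised Tap1 to 5.09. For IgG over input it gave H2-K1 0.13, H2-D1 0.0747, Tap1 0.0558, Tap2 0.38 (called) and Erap1 -0.14 (not called). With it 13051 genes were higher and 4 lower over IgG, 13048 and 7 over input, and 6116 and 1093 for IgG over input, and 12719 were bound. Of the 9, 9 were higher and 0 lower over IgG, likewise 9 and 0 over input, 2 and 3 for IgG over input, and 8 were bound. By its construction this scaling sets every mRNA against RNA that was scarce in p-UPF1 libraries.

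Tapbp over IgG lost its call with DESeq2 size factors (-0.0869) and without the low-count filter (-0.0562), ranged from -0.112 to -0.077 when 1 library was left out, and was still called at -0.262 where only library size was used. That setting gave 0.185 for Tap1 over IgG, also called. Tap1 over input was called with DESeq2 size factors (0.10), DESeq2 (0.10), an IgG library as TMM reference (0.17), no filter (0.19) and only the 2 groups compared (0.0819), and turned to -0.00999 with upper-quartile factors. Tap2, IgG over input, was called with upper-quartile factors (0.11), library size alone (0.15), an input (0.14) or IgG (0.15) TMM reference, no filter (0.13) and only 2 groups (0.15), which made 2 genes higher in place of 1. H2-K1, IgG over input, was not called with library size alone (-0.10). With glmTreat 541 genes were bound, beside 820. The cause was not tested. The 6 ratio differences moved by less than 1 SD without the pseudocount and when 1 library was left out. Depth limited none of the 9 genes, whose counts summed to 2798 or more over the 3 libraries of a group.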
